A study of Homo sapiens with 16 samples.

Results

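The genes described here are targets of p53, the transcription factor that cells stabilise after DNA damage and other stress. The rule named 9 genes, CDKN1A, MDM2, ZMAT3, BBC3, TP53I3, RRM2B, SESN1, BAX and FDXR, and took every probe set annotated with 1 of these symbols alone. By it 6 of the 9 were read, of 11963 genes in all, on 11 probe sets. BBC3 stood only on a probe set that carries several symbols and was not read, and RRM2B and FDXR were not analysed here. The rule reads the annotated symbols and no measured value, but the members and the lists used below were chosen with earlier results of these data known. The shares of all genes given beside counts of members are therefore a description and no test.

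RNA from 4 human breast cell lines had been hybridised to 16 Affymetrix U133 2.0 arrays, in 8 groups of 2. MDAMB231 and LM24175, called invasive by the submitters, carried a stably introduced, constitutively expressed RECK construct or an empty vector (EV). Hs343T and Hs606T, called poorly invasive, had been transfected with an siRNA labelled as directed at RECK (siRECK) or with a scrambled siRNA (siSCR). RECK is a membrane-anchored inhibitor of matrix metalloproteinases. MDAMB231 is a widely used line and is known to carry a mutant p53, and LM24175 is a lung-metastatic derivative of it. The sources used here do not state the time after transfection, nor whether both arrays of a group stem from different cultures. The p-values therefore rest on differences between 2 hybridisations a group whose spread could be technical. Levels are log2 values, and a difference is the log2 level of the first group named minus that of the other.

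RECK itself went against the siRNA labels. It read 11.31 and 11.24 on the Hs343T arrays labelled siRECK, against 6.07 and 5.52 on those labelled siSCR, which is 44.5-fold higher (adjusted p = 1.28e-10). In Hs606T it read 11.17 and 11.02 under siRECK and 8.74 and 8.65 under siSCR, 5.29-fold higher (adjusted p = 6.65e-06). RECK did not pass between construct and vector, with a difference of 0.03 in MDAMB231 (adjusted p = 0.962) and of -0.42 in LM24175 (adjusted p = 0.154). In the control arms its mean over the invasive lines was above that over the poorly invasive ones (difference 0.64, limma adjusted p = 0.000251). The arrays of both sides overlapped, however. The EV arrays read 7.74 to 8.04, above the siSCR arrays of Hs343T but below those of Hs606T. RECK was read from a single probe set, the brightest for its symbol, and whether that probe set reads the intended target was not tested. Every direction given for the siRNA lines is therefore that of the arrays as labelled. Array medians lay between 6.42 and 6.57, and the arrays of a group correlated at 0.994 to 0.998 across probe sets. The differences between the first and the other array of a group correlated at 0.486 between MDAMB231 EV and LM24175 RECK. Such a correlation cannot tell which array of each group deviated. The first MDAMB231 EV array and the first LM24175 RECK array were taken as deviating and are called the arrays that stood apart. Results without them rest on that choice. The 10 fibroblast markers summed to 585 to 1230 linear units on the arrays of MDAMB231 and LM24175, and to between 55500 and 90300 on those of Hs343T and Hs606T, where 0 of the 10 read below the lower quartile. Of all genes, 34.2% were higher and 38.8% lower in the invasive control arms than in the poorly invasive ones. Of 9 epithelial markers, 6 were higher and 1 lower there. EPCAM, 1 of them, averaged 8.15 to 8.85 in the groups of the invasive lines and 4.10 to 4.67 in those of the poorly invasive lines, whose submitters' label is breast cancer cell line. KRT19, a keratin, averaged 10.83 in MDAMB231 and 9.33 in LM24175 with empty vector, and 9.85 in Hs343T and 10.68 in Hs606T with siSCR, and did not pass (limma, adjusted p = 0.0718). KRT18, another keratin, averaged 12.58 to 12.78 in the groups of the invasive lines and 8.34 to 10.18 in those of the poorly invasive lines. CDH1, which encodes E-cadherin, was low in every group, at 3.84 to 4.14.

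p53 binds DNA as a tetramer at response elements made of a repeated short motif and raises transcription nearby. Its targets fall into roles. CDKN1A encodes p21, which inhibits cyclin-dependent kinases and so lets the DREAM complex silence cell cycle genes, and MDM2 encodes the ubiquitin ligase that degrades p53 and closes a feedback loop. SESN1 encodes sestrin 1, which restrains mTORC1 and supports peroxiredoxin recycling, and TP53I3 encodes a quinone oxidoreductase linked to oxidative stress. ZMAT3 encodes an RNA-binding zinc finger protein that acts on splicing and mRNA stability. BAX encodes a pore-forming protein of the outer mitochondrial membrane that drives apoptosis.

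Promoter sequence of 3 of the members is shown because each holds copies of a motif searched for here. The windows come from RefSeq on GRCh38.p14, from 250 bases before to 50 bases after an annotated start, and all 6 members read had at least 1, with 12 windows in all. MDM2 has an internal promoter in the first intron that is known to answer to p53. The stretch at chr12:68808913-68808990 on the plus strand, upstream of that start, carries 2 p53 response elements (capitals), with 2 and 3 mismatches to the consensus, and SESN1 carries 1 with 3 mismatches at chr6:109009008-109009047 on the minus strand, before an internal start. The BAX window holds 4 copies of the E-box CACGTG (capitals) directly upstream of the gene's start, at chr19:48954727-48954874 on the plus strand.
MDM2: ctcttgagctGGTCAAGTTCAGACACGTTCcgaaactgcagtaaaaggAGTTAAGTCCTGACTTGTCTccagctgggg
SESN1: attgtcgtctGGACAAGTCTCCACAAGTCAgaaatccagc
BAX: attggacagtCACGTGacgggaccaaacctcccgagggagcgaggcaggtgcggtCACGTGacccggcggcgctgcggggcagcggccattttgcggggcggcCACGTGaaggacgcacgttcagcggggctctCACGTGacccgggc

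The p53 response element was searched as 2 adjoining copies of that motif with no gap. Its consensus reads the same on both strands. Allowing up to 3 mismatches, a limit set after the windows had been seen, it occurred in 3 of the 12 windows, of which 2 overlap at the internal MDM2 start, and in 5.2% of all 35116 windows. With at most 2 mismatches it occurred in 0.649% of all windows, and MDM2 was the only member with such a match. An E-box occurred in 1 of the 12 member windows and in 7.26% of all windows. At least 4 of them, a number taken from the BAX window itself, occurred in 0.0142%, or 5 windows. A core of interferon response elements, GAAA followed after any 2 bases by GAAA, was searched on both strands and was in 0 of the 12 windows and in 3.57% of all. A match is a description of letters only, and p53 sites outside these windows, such as the known distal sites of CDKN1A, were not searched.

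CDKN1A (chr6:36676463-36687332, GRCh38.p14) was read on 1 probe set and was high in every group. It read 10.96 and 10.92 in MDAMB231 with the construct, against 10.07 and 10.79 with empty vector. The construct arrays lay above both vector arrays, but the lower vector array is among those taken to stand apart. The difference of 0.50 (95% interval -0.05 to 1.06) did not pass (adjusted p = 0.48). In LM24175 the level was 9.72 and 10.67 with the construct and 10.19 and 10.16 with empty vector. The construct arrays lay on either side of the vector arrays, with a difference of 0.02 (adjusted p = 0.984). Over the alternatives run, the CDKN1A difference in LM24175 ranged from -0.45 to 0.49, so its sign depended on the alternative. Without both arrays that stood apart, the LM24175 difference was 0.49 and passed (adjusted p = 0.00865), from 1 construct array.

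In Hs343T, CDKN1A read 11.73 and 11.71 on the siRECK arrays and 11.98 and 12.08 on the siSCR arrays. The groups did not overlap, yet the difference of -0.31 (SE 0.26) did not pass (adjusted p = 0.42). The SE is that of a spread shared over all groups, to which the groups holding the arrays that stood apart contributed gaps of 0.72 and 0.94. Without those arrays the same difference passed (adjusted p = 0.00613), and it also passed when only the Hs343T arrays were fitted (adjusted p = 0.0351). In Hs606T, CDKN1A read 12.43 and 12.59 under siRECK and 12.59 and 12.60 under siSCR, a difference of -0.08 (adjusted p = 0.939).

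**Figure D1:**
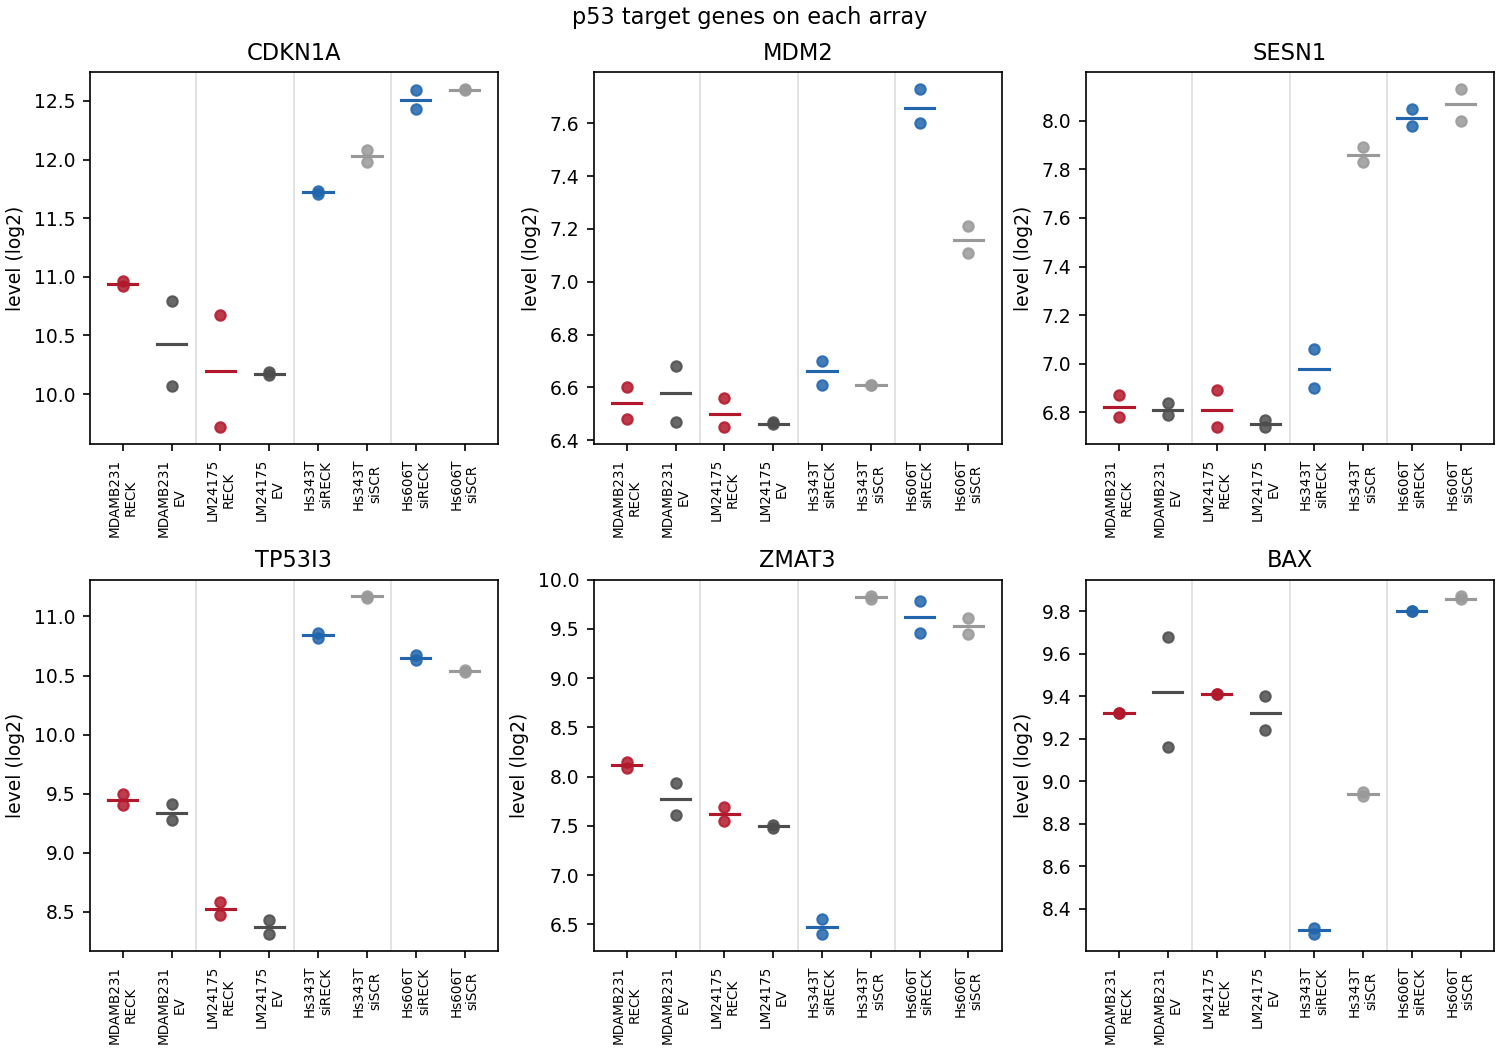
Log2 level (y axis) of the 6 p53 target genes on each of the 16 arrays, by cell line and treatment (x axis), with points for arrays and bars for group means; each y axis has its own range. ZMAT3 drops to 6.40 and 6.55 on the Hs343T siRECK arrays, against 9.80 and 9.83 on the siSCR arrays, while MDM2 is highest in Hs606T.

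MDM2 (chr12:68808172-68850686) stood on 5 probe sets, and the brightest, 217542_at, was taken for the gene. In Hs606T it read 7.73 and 7.60 under siRECK, against 7.11 and 7.21 under siSCR. Both siRECK arrays were higher than both siSCR arrays, and the difference of 0.50 (SE 0.09) is 1.42-fold, with a 95% interval of 1.23 to 1.63 and an adjusted p of 0.0242. It was the only member of the 6 to pass in Hs606T, where 0.811% of all genes rose. The arrays of 4 of the 6 members did not overlap there, which was so for 48.8% of all genes. The call was lost when the probe sets of a gene were averaged (0.17, adjusted p = 0.38), when only the Hs606T arrays were fitted (adjusted p = 0.144) and without any single Hs606T array (adjusted p from 0.0547 to 0.211).

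Elsewhere MDM2 varied little. In Hs343T it read 6.61 and 6.70 under siRECK and 6.61 and 6.61 under siSCR, a difference of 0.05 (adjusted p = 0.759). It read 6.60 and 6.48 with the construct and 6.68 and 6.47 with empty vector in MDAMB231, and 6.56 and 6.45 against 6.47 and 6.46 in LM24175. Construct and vector arrays overlapped in both lines.

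The other 4 probe sets of MDM2 were dim. 2 of them, 205386_s_at and 211832_s_at, read below the lower quartile of their array on all 16 arrays, 205385_at did so on 13 and 217373_x_at on 12. Their differences in Hs606T were 0.19, -0.07, 0.26 and -0.01 for 205385_at, 217373_x_at, 205386_s_at and 211832_s_at, and none passed when every probe set was tested alone (smallest adjusted p = 0.573), whereas 217542_at did (adjusted p = 0.0328). The rise of MDM2 in Hs606T thus rests on 1 of its 5 probe sets.

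**Figure D2:**
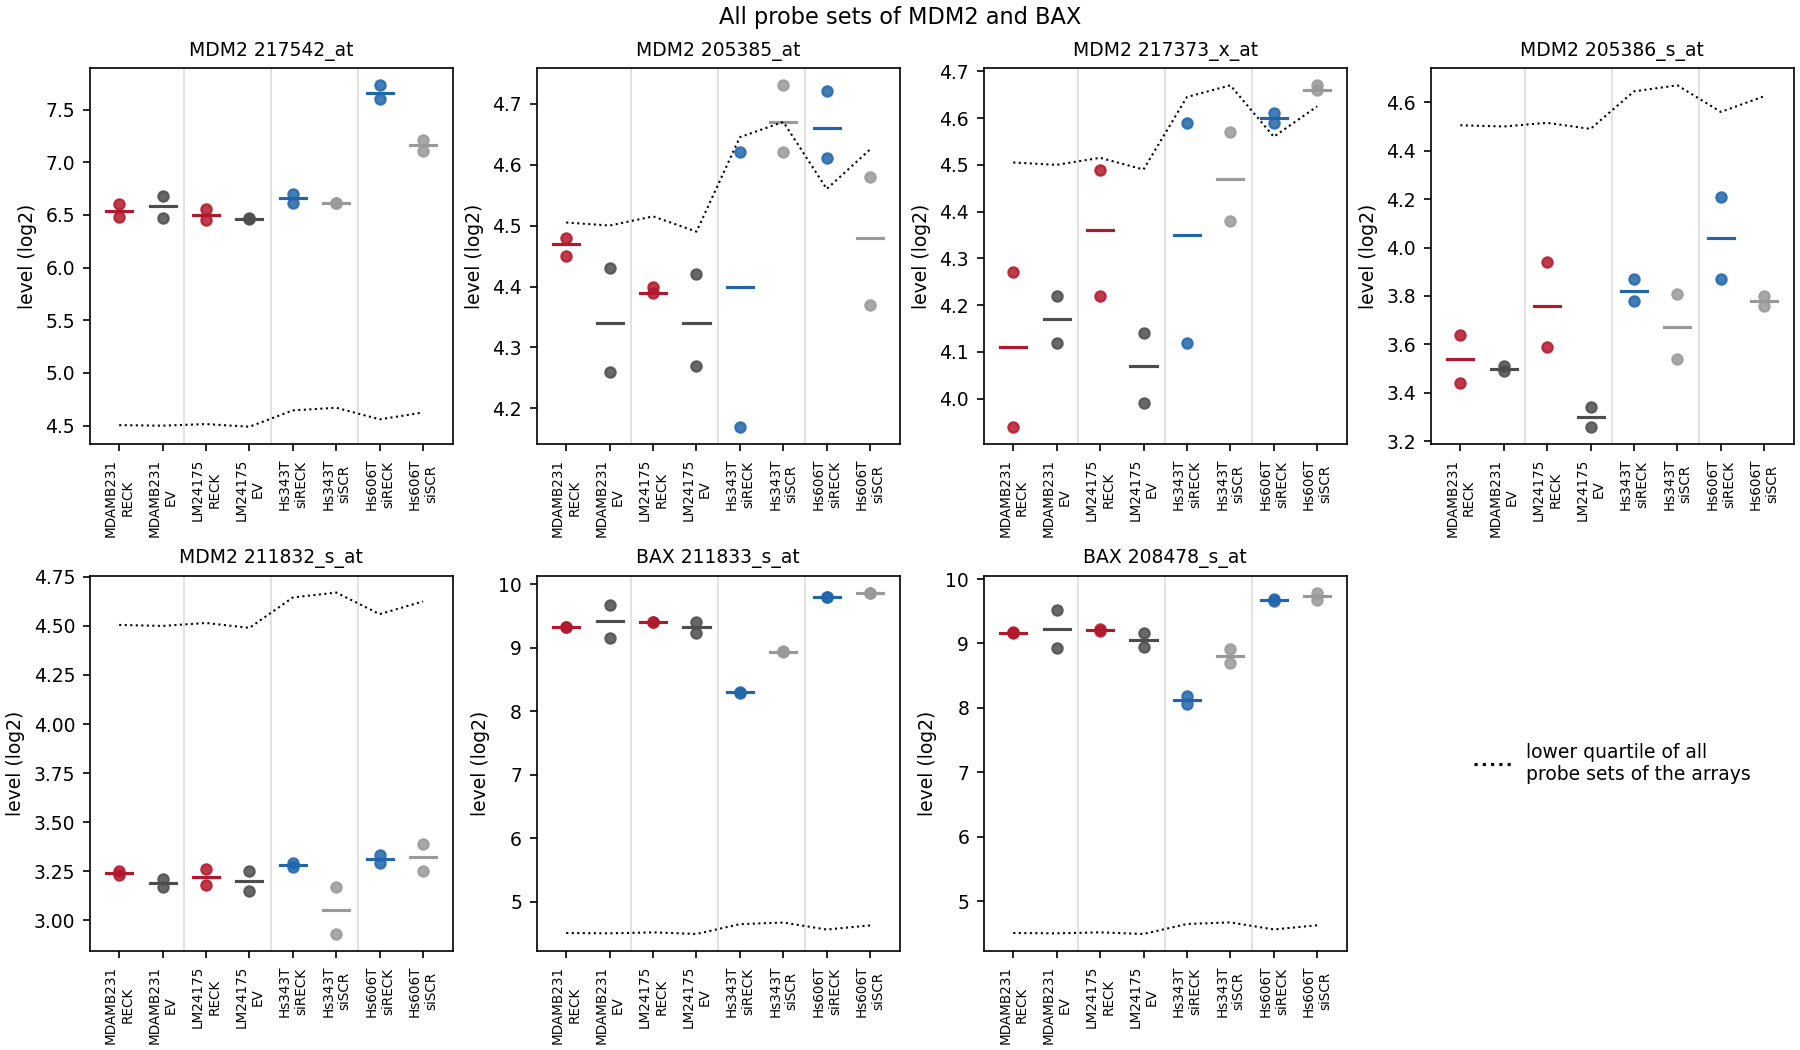
Log2 level (y axis) on each array of the 5 MDM2 and the 2 BAX probe sets, by cell line and treatment (x axis), with points for arrays, bars for group means and a dotted line for the mean lower quartile of the group's arrays. Only 217542_at of MDM2 lies above the dotted line throughout, and both BAX probe sets are lower under siRECK in Hs343T.

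SESN1 (chr6:108984309-109094846) was lower under siRECK in Hs343T. It read 6.90 and 7.06 on the siRECK arrays, against 7.89 and 7.83 on the siSCR arrays. The groups did not overlap, and the level was 1.84-fold lower (difference -0.88, SE 0.09, adjusted p = 9.46e-06). In Hs606T it read 7.98 and 8.05 under siRECK and 8.0 and 8.13 under siSCR, which overlap (difference -0.05, adjusted p = 0.871). It read 6.87 and 6.78 with the construct and 6.79 and 6.84 with empty vector in MDAMB231, and 6.89 and 6.74 against 6.77 and 6.74 in LM24175. The siRECK arrays of Hs343T thus read 6.90 to 7.06 where all arrays of the invasive lines read 6.74 to 6.89.

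TP53I3 (chr2:24077433-24084834) read 10.86 and 10.82 on the Hs343T siRECK arrays and 11.16 and 11.17 on the siSCR arrays. The groups were apart, and the small drop of 1.26-fold (difference -0.33, SE 0.08) passed (adjusted p = 0.00808). Without the second siRECK array of Hs343T it did not pass (adjusted p = 0.0558). In Hs606T it read 10.67 and 10.63 under siRECK and 10.55 and 10.53 under siSCR, apart in the other direction, with a difference of 0.11 that did not pass (adjusted p = 0.66). In LM24175 it read 8.58 and 8.47 with the construct, above 8.31 and 8.43 with empty vector, and the difference of 0.15 did not pass (adjusted p = 0.35). In MDAMB231 it read 9.50 and 9.40 with the construct and 9.28 and 9.41 with empty vector, which overlap.

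ZMAT3 (chr3:179017223-179072513) changed most of the 6 members read. In Hs343T it read 6.40 and 6.55 under siRECK, against 9.80 and 9.83 under siSCR. The gap between the groups was far wider than the gaps of 0.15 and 0.03 between arrays of a group. The level was 10.1-fold lower, with a 95% interval of 8.38 to 12.3 (difference -3.34, SE 0.13, adjusted p = 1.41e-09).

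In Hs606T, ZMAT3 read 9.78 and 9.46 under siRECK and 9.61 and 9.45 under siSCR, overlapping, with a difference of 0.09 (95% interval -0.19 to 0.37, adjusted p = 0.847). With the construct it read 8.15 and 8.09 in MDAMB231, against 7.61 and 7.93 with empty vector. These did not overlap, but the difference of 0.35 did not pass (adjusted p = 0.318). In LM24175 it read 7.69 and 7.55 with the construct and 7.51 and 7.48 with empty vector, a difference of 0.12 (adjusted p = 0.704). The Hs343T siRECK arrays were thus the lowest of all 16, below those of the invasive lines.

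BAX (chr19:48954875-48961798) was read on 2 probe sets that moved alike. On 211833_s_at, taken for the gene, it read 8.28 and 8.31 on the Hs343T siRECK arrays and 8.95 and 8.93 on the siSCR arrays. The level was 1.56-fold lower (difference -0.64, SE 0.13, adjusted p = 0.00234). On 208478_s_at it read 8.06 and 8.19 under siRECK and 8.70 and 8.91 under siSCR. Tested alone, this probe set was lower by 0.68 on the log2 scale (difference -0.68, adjusted p = 0.00683).

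In Hs606T, BAX read 9.80 and 9.80 under siRECK and 9.86 and 9.87 under siSCR, a difference of -0.06 that did not pass (adjusted p = 0.905). In MDAMB231 it read 9.32 and 9.32 with the construct, between the 9.68 and 9.16 of the vector arrays. In LM24175 it read 9.41 and 9.41 with the construct and 9.24 and 9.40 with empty vector. Neither difference passed (adjusted p = 0.799 and 0.801). Without the second MDAMB231 EV array, which leaves the vector array that stood apart, the MDAMB231 difference was -0.36 and passed (adjusted p = 0.0368).

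**Figure D3:**
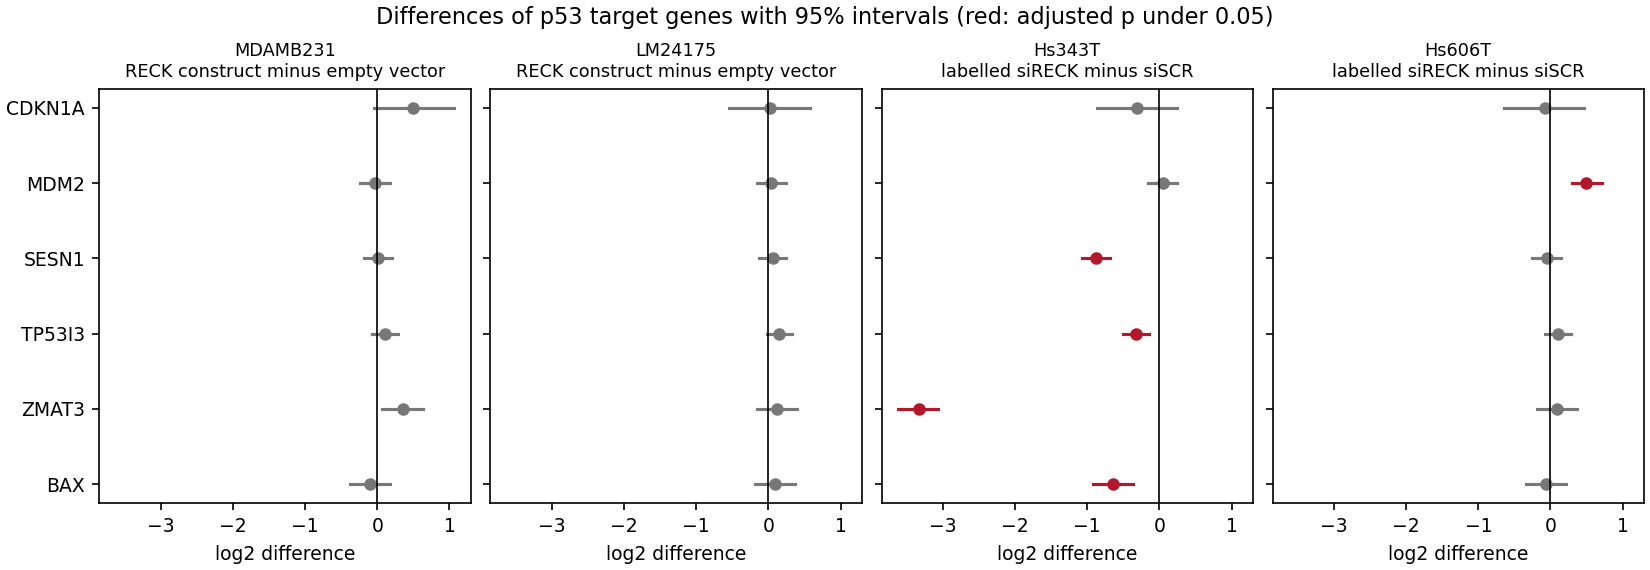
Log2 differences (x axis) of the 6 p53 target genes (y axis) in each cell line, construct minus empty vector or siRECK minus siSCR, with 95% intervals of the fit. Red points passed, which are SESN1, TP53I3, ZMAT3 and BAX in Hs343T and MDM2 in Hs606T.

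Counted over the members, 4 of 6 fell in Hs343T and 0 rose, beside 17.4% of all genes that fell and 12% that rose. The median member difference there was -0.49, against -0.06 over all genes. Cell type markers moved on the same arrays. Of 9 epithelial markers 3 fell and 0 rose, namely KRT18 (-1.08), KRT19 (-0.92) and KRT8 (-0.64), and their summed level was 1350 to 1370 under siRECK and 2430 to 2440 under siSCR. Of 10 fibroblast markers 2 fell, FAP (-0.99) and PDGFRA (-0.94), with sums of 55500 to 57600 and 59400 to 60300, and their part in the members' values was not tested. The arrays of all 6 members were apart in Hs343T, as were those of 65.6% of all genes. In MDAMB231, 0 of 6 members passed in limma, with 1 at an unadjusted p under 0.05, where 0.276% of all genes passed. The arrays of 2 of 6 were apart, beside 37.8% of all genes. In LM24175, 0 of 6 passed, with 0 at an unadjusted p under 0.05, where 6.7% of all genes passed, and the arrays of 3 of 6 were apart, beside 47.8%. 

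Between the siRNA lines, the response of Hs606T minus that of Hs343T was tested directly. It was positive and passed for 5 of 6 members, beside 11.6% of all genes that passed in that direction and 8.72% in the other. ZMAT3 differed by 3.43 (SE 0.18, adjusted p = 8.34e-08) and SESN1 by 0.83 (SE 0.12, adjusted p = 0.000491). These calls held under every alternative run. BAX differed by 0.58 (adjusted p = 0.0429), MDM2 by 0.45 (adjusted p = 0.0291) and TP53I3 by 0.44 (adjusted p = 0.0163), and each of these was lost under some alternative, among them the fits that leave out 1 array. For CDKN1A the difference of 0.23 had a 95% interval of -0.56 to 1.02 and did not pass (adjusted p = 0.741). The response to the construct in LM24175 minus that in MDAMB231 passed for 0 of 6 members (smallest adjusted p = 0.526, 0 at an unadjusted p under 0.05), beside 3.64% of all genes. Without the second MDAMB231 EV array, BAX passed there (0.45, adjusted p = 0.0262).

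The arrays labelled as controls (EV and siSCR) were also compared between lines, with the limit that RECK went against the siRNA labels, so that a direction drawn from siSCR arrays is that of the labels. With empty vector, LM24175 against MDAMB231 differed in TP53I3 alone among the members, which was 1.96-fold lower in LM24175 (difference -0.97, SE 0.08, adjusted p = 7.5e-06), beside 10.9% of all genes lower and 9.87% higher. Without both arrays that stood apart, CDKN1A (-0.62, adjusted p = 0.000789) and ZMAT3 (-0.43, adjusted p = 0.0423) were lower in LM24175 too, and ZMAT3 also without the first MDAMB231 EV array alone (adjusted p = 0.0468). Without the second MDAMB231 EV array, BAX was lower (-0.36, adjusted p = 0.0126). With siSCR, Hs606T against Hs343T had BAX higher by 0.92 (adjusted p = 0.000147), MDM2 higher by 0.55 (adjusted p = 0.000564) and TP53I3 lower (difference -0.63, adjusted p = 7.04e-05). For all genes, 18.4% were higher and 18.5% lower in Hs606T. MDM2 did not pass there when its probe sets were averaged (0.19, adjusted p = 0.0691). CDKN1A, with a difference of 0.57, did not pass (adjusted p = 0.108), but did without the arrays that stood apart (adjusted p = 0.000151) and when only these arrays were fitted (adjusted p = 0.00528). ZMAT3, with a difference of -0.29 (adjusted p = 0.0975), passed under quantile normalization (-0.33, adjusted p = 0.0492).

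The invasive lines against the poorly invasive ones, control arms only, had 5 of 6 members lower, beside 38.8% of all genes lower and 34.2% higher. TP53I3 was 3.99-fold lower, with a 95% interval of 3.66 to 4.35, ZMAT3 4.11-fold lower (3.59 to 4.70) and CDKN1A 4.02-fold lower (3.06 to 5.29). SESN1 was 2.26-fold lower and MDM2 1.29-fold lower, and all 5 had an adjusted p of at most 0.000297. The MDM2 arrays of both sides overlapped, and its difference was under the 1.5-fold minimum. MDM2 averaged 6.61 in Hs343T with siSCR, near the 6.58 of MDAMB231 and 6.46 of LM24175 with empty vector, and 7.16 in Hs606T with siSCR. BAX, with a difference of -0.03 (95% interval -0.23 to 0.17), did not pass (adjusted p = 0.773), but did without both arrays that stood apart (-0.16, adjusted p = 0.0158) and without the MDAMB231 one alone (-0.16, adjusted p = 0.0213). These intervals and adjusted p-values rest on the spread between arrays of a group and do not measure the spread between lines. TP53I3 differed by -0.97 between LM24175 and MDAMB231 with empty vector, and LM24175 is itself a derivative of MDAMB231. The fibroblast markers separate the invasive from the poorly invasive lines by far more, with a median difference of -6.84 over the 10. Cell origin, vector and siRNA treatment, and p53 status should it differ, thus cannot be told apart from invasiveness in this comparison. The p53 status of Hs343T and Hs606T is not given here. In RNA of whole cultures, fewer cells that express a gene and less RNA per cell cannot be told apart either.

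Ordered by group mean, CDKN1A was lowest in LM24175 (10.20 with the construct and 10.17 with empty vector), followed by MDAMB231 (10.94 and 10.43), Hs343T (11.72 with siRECK and 12.03 with siSCR) and Hs606T (12.51 and 12.59). No difference within a line passed. MDM2 means lay between 6.46 and 6.66 in all but Hs606T, a range no wider than the widest gap of 0.21 between arrays of a group, and at 7.66 with siRECK and 7.16 with siSCR in Hs606T. ZMAT3 was at 6.47 in Hs343T with siRECK, at 7.50 to 8.12 in the invasive lines, and at 9.53 to 9.82 in the remaining 3 groups. SESN1 means lay from 6.75 to 6.98 in the invasive lines and in Hs343T with siRECK, and from 7.86 to 8.07 in the remaining 3 groups. TP53I3 stood lowest in LM24175 (8.52 with the construct and 8.37 with empty vector), then in MDAMB231 (9.45 and 9.34), Hs606T (10.65 with siRECK and 10.54 with siSCR) and Hs343T (10.84 and 11.17). BAX was at 8.30 with siRECK and 8.94 with siSCR in Hs343T, at 9.32 to 9.42 in the invasive lines, and at 9.80 and 9.86 in Hs606T.

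Across the 8 group means, SESN1 followed CDKN1A (Pearson r = 0.91) and ZMAT3 (r = 0.87), and TP53I3 followed CDKN1A (r = 0.90). BAX had r = 0.11 with CDKN1A and r = -0.25 with TP53I3. These describe 8 groups that share 4 lines and 1 scaling, and carry no test. Of 5385 genes whose group means span at least 1 log2 unit, those most like CDKN1A were STX7 and MARK4 (both r = 0.991) and TMEM8B (r = 0.99). Most like MDM2 were TRPC6 (r = 0.994), CDO1 (r = 0.987) and PRUNE2 (r = 0.983). Outside Hs606T, TRPC6 averaged 3.51 to 3.95 and CDO1 3.92 to 4.24, below the lower quartile of every array, which was at least 4.47. Their likeness to MDM2 thus rests largely on Hs606T. Most like ZMAT3 were GET1 (r = 0.979), AMPD2 (r = 0.973) and GORASP2 (r = 0.96). GET1, for example, averaged 9.37 in Hs343T with siRECK and 11.44 with siSCR, and 11.04 against 11.01 in Hs606T.

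A wider list held 51 other p53 targets, of which 44 were measured. In Hs343T 14 of them rose and 9 fell, with a median of 0.07, beside 12% of all genes that rose and 17.4% that fell. The share of the list that fell was near that of all genes. The largest rises were in TLR3, a sensor of double-stranded RNA (6.32), PMAIP1, which encodes the BH3-only protein NOXA (5.44), TRIM22, an antiviral TRIM protein (3.25), and CSF1, the macrophage growth factor (3.03). TLR3, PMAIP1 and TRIM22 are also known as genes that interferon or double-stranded RNA induces. TSKU rose by 1.57 and TGFA, an EGF receptor ligand, by 1.40. Among those that fell were DDB2, a DNA damage recognition protein of nucleotide excision repair (-1.01), and TRIAP1 and CCNG1 (both -0.82). On the same arrays 21 of 21 interferon-stimulated genes measured rose, with a median difference of 6.65, and RECK read higher as well. The part of either in the p53 target values was not tested. The difference between the 3′ and 5′ GAPDH probe sets, a sign of RNA quality, was 0.43 and 0.48 on the Hs343T siRECK arrays and 0.36 and 0.39 on the siSCR arrays. The siRECK values were the highest of the 16 arrays, which ranged from 0.20 to 0.48, and their part in the result was not tested.

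Beside 97 of all 11963 genes that rose and 46 that fell, 2 of the 44 rose and 0 fell in Hs606T. Without both arrays that stood apart, which lie in other lines but share the estimate of spread, 4 rose and 2 fell. The 2 in the full fit were GADD45A, a stress-induced growth arrest gene (0.53, adjusted p = 0.00578), and TLR3 (0.52, adjusted p = 0.0382). There 17 of 21 interferon-stimulated genes rose, with a median difference of 1.34. PMAIP1 differed by 0.14 and CSF1 by 0.04, and neither passed. In the test between the responses, the response of 13 of the 44 was lower in Hs606T and that of 6 higher, beside 8.72% of all genes lower and 11.6% higher. PMAIP1 (-5.30) and TLR3 (-5.80) were among the lower ones. In LM24175, 4 of the 44 rose with the construct and 3 fell, where 6.7% of all genes passed in either direction. These were led by TLR3 (0.71, limma adjusted p = 0.00206) and CSF1 (-0.81, adjusted p = 0.00657), with FAS, the death receptor, at -0.44. In MDAMB231, 0 of the 44 passed in limma, where 0.276% of all genes did, and 6 had an unadjusted p under 0.05.

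Of 20 measured regulators of p53, 3 rose and 6 fell in Hs343T, where 12% of all genes rose and 17.4% fell. UBE4B, a ubiquitin chain elongation factor (-2.19), and USP7, a deubiquitinase of MDM2 and p53 (-1.19), fell. The DNA damage kinases went apart, with CHEK2 up by 1.35 and PRKDC at -0.78. PPP1R13L, which encodes the p53 inhibitor iASPP, rose by 0.84, and the kinase DYRK2 fell (-0.71). In LM24175 DYRK2 rose by 0.47 and PPP1R13B fell (-0.49), and without both arrays that stood apart 1 rose and 0 fell. In Hs606T and MDAMB231 0 of the 20 passed in limma, with 1 and 5 at an unadjusted p under 0.05. Of all 11963 genes, 143 passed in Hs606T, 0.276% in MDAMB231 and 6.7% in LM24175.

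Cell cycle genes that p21 lowers through the DREAM complex fell in Hs343T, where CDKN1A itself had a difference of -0.31. Beside 17.4% of all genes that fell and 12% that rose, 23 of 30 measured fell and 0 rose, with a median of -0.90. The falls were led by BUB1B of the spindle checkpoint (-2.78), topoisomerase TOP2A (-2.29), the mitotic kinase CDK1 (-2.16) and CDC20 (-1.98). In Hs606T 0 of the 30 passed in limma, with 7 at an unadjusted p under 0.05 and a median of 0.07 (1 rose and 2 fell without both arrays that stood apart), and the response of 21 was higher in Hs606T than in Hs343T and of 0 lower. Of all 11963 genes, 143 passed in Hs606T. The response of 11.6% of all genes was higher in Hs606T than in Hs343T and that of 8.72% lower. In the control arms all 30 were higher in the invasive lines, with a median of 3.39, beside 34.2% of all genes. All 30 were also lower in Hs606T than in Hs343T, with a median of -1.46, beside 18.5% of all genes. The CDKN1A means of the control arms stood in the opposite order, highest in Hs606T and lowest in the invasive lines, although Hs606T and Hs343T did not differ in CDKN1A past the threshold. A link between CDKN1A and these genes was not tested, and it cannot be told apart here from other differences between the lines, such as cell origin.

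Among 17 genes of G1 control measured, 5 rose and 3 fell in Hs343T, beside 12% of all genes that rose and 17.4% that fell. The kinase CDK4 fell (-1.53), as did PCNA, the replication clamp and itself a p53 target (-1.02), and CCNE1 (-0.60). The CDK inhibitors CDKN2D (0.97) and CDKN2A (0.57) and the cyclin gene CCND3 (0.92) rose. CDKN2A was lower in the invasive control arms (difference -3.77).

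Where 12% of all genes rose and 17.4% fell in Hs343T, 6 of 14 in the BCL2 family besides BAX and BBC3 rose and 2 fell. Apart from PMAIP1, these were led by the survival gene BCL2A1 (3.42), BCL2L13 (1.90) and BAK1, the pore-forming partner of BAX (0.93). The BH3-only gene BAD fell (-0.72), and MCL1, a survival gene, rose by 0.38. BAK1 and BAX thus passed in opposite directions on the same arrays. In the invasive control arms PMAIP1 was higher (3.56), as was BCL2L1 (1.82), and BCL2A1 lower (-1.46).

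Of 9 paralogs and partners of the members, 5 were measured. RRM2 and RRM1, the other subunits of ribonucleotide reductase beside RRM2B, fell in Hs343T (-1.30 and -0.79), and ZMAT5, a ZMAT family member, fell (-0.23). In the invasive control arms RRM2 was higher by 3.44 and RRM1 by 1.76.

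In the control arms 16 of the 44 other targets were higher and 21 lower in the invasive lines, with a median of -0.03. Over all genes 34.2% were higher and 38.8% lower. The share of the list that was higher was near that of all genes, and the share that was lower was larger. FAS (-3.39), TRIM22 (-3.37), PHLDA3, an inhibitor of AKT (-2.93), and the autophagy gene DRAM1 (-2.47) were lower. SFN, which encodes 14-3-3 sigma of epithelial cells (4.17), and PMAIP1 (3.56) were higher. The p53 regulators were mostly higher in the invasive lines, with 14 of 20 higher and 3 lower, led by PRKDC (1.86) and SIRT1, a deacetylase of p53 (1.32).

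**Figure D4:**
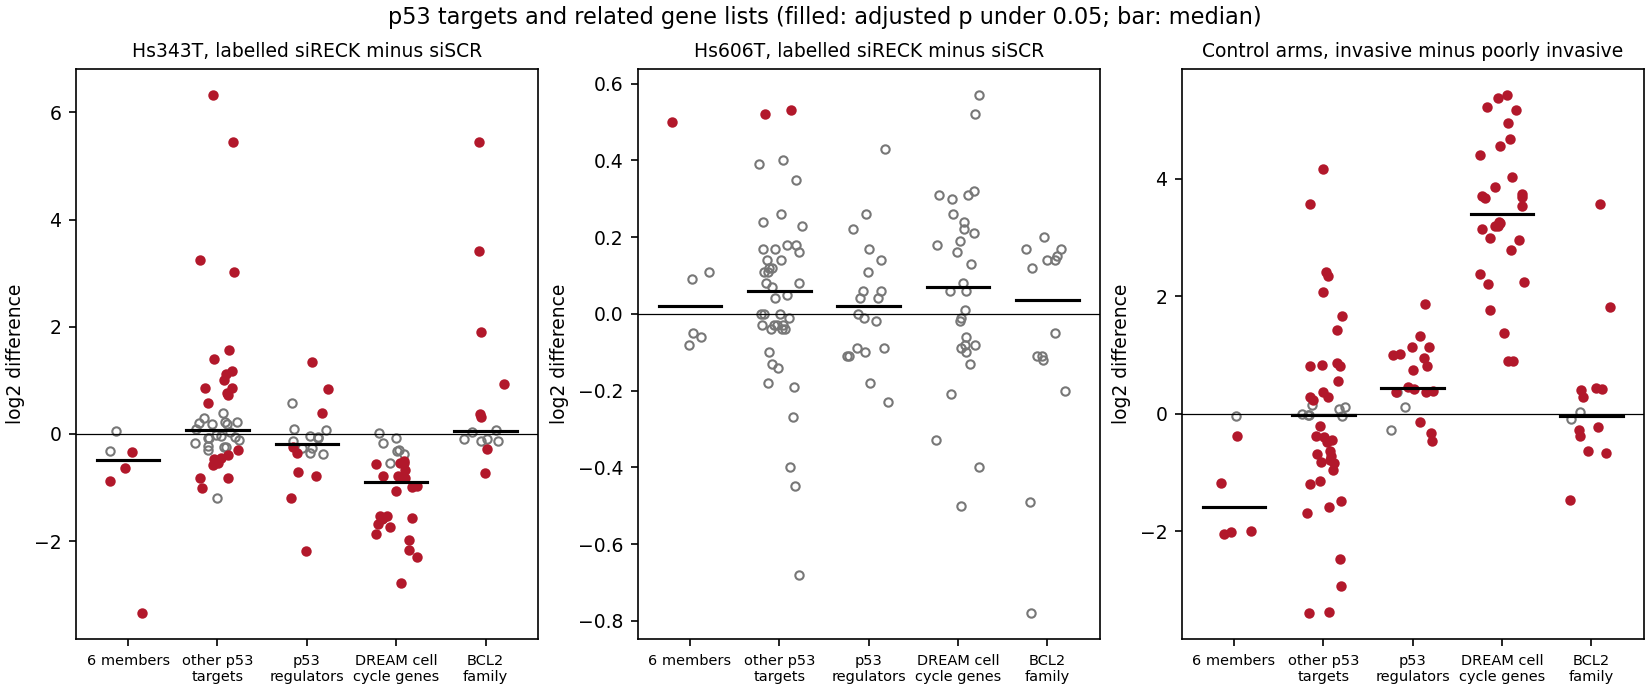
Log2 differences (y axis) of the 6 members and of genes in 4 related lists (x axis), with a point for each gene, filled where it passed, and a bar at the median, in Hs343T, in Hs606T and between the control arms; each y axis has its own range. In Hs343T the DREAM cell cycle genes lie low, at a median of -0.90, and the other p53 targets are spread to both sides, at a median of 0.07.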

How the data were processed

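Per the submitters' processing notes and the series text, the authors used Partek on the scanner files. Their deposited table has log2 values of 22277 probe sets on 16 arrays, with the log base read from the values, and the sources used here do not name the summary or scaling method. Depth does not apply, and the number of arrays limits precision. Of the probe sets, 19064 carried exactly 1 symbol in the platform annotation, after 62 control probe sets were left out, and 1043 carried several. A gene was read from its brightest such probe set. No value was filtered or rescaled.

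The 8 group means were estimated jointly from all arrays by limma (version 3.58.1, R 4.3.3), using lmFit, contrasts.fit and eBayes. Degrees of freedom were 8 residual and 3.72 prior. Tests were 2-sided and adjusted by Benjamini and Hochberg over 11963 genes, and "passed" means an adjusted p under 0.05. Counts at an unadjusted p under 0.05 are given without the share of all genes and only describe. Intervals are 95% intervals of that fit. A group was "apart" where its arrays did not overlap those of the other. The procedure was tested on simulated data. Named genes were the members, RECK, up to 6 passing genes a list by size (DDB2, TRIAP1, CCNG1, the values in Hs606T of PMAIP1 and CSF1, and the markers EPCAM, CDH1, KRT8, KRT18, KRT19, FAP and PDGFRA outside this were named after their values were seen), and for 3 members the 3 genes most alike over group means of at least 1 log2 unit in span. Members and lists were chosen with earlier results of these data known. Alternatives were quantile normalization, median centring, averaged probe sets, single probe sets, dropping the lowest 0.25 of genes by level, a 1.5-fold minimum, a block for replicate number, a fit of the compared arrays alone, robust eBayes with a trend, and fits without single arrays or without both that stood apart. List counts without both arrays that stood apart were added after seeing the data. Figures were drawn with matplotlib 3.10.9, and tables were handled with pandas 2.3.3 and numpy 2.4.6 under Python 3.11.15. Promoter sequences are from RefSeq (GRCh38.p14).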

Additional observations from a re-analysis of the deposited data

Results flagged for a closer look

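For 5 members the response in Hs606T minus the response in Hs343T, both siRECK minus siSCR, passed the test of the difference itself. ZMAT3 differed by 3.43, with a response of 0.09 in Hs606T and -3.34 in Hs343T. SESN1 differed by 0.83, with -0.05 in Hs606T and -0.88 in Hs343T. BAX differed by 0.58 (-0.06 in Hs606T and -0.64 in Hs343T), MDM2 by 0.45 (0.50 in Hs606T and 0.05 in Hs343T) and TP53I3 by 0.44 (0.11 in Hs606T and -0.33 in Hs343T).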

How the results depend on the processing

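Of 54 pairs of member and comparison, 19 passed, of which 12 passed under every alternative run, the 1.5-fold minimum included, and 7 were lost under at least 1. Of the 35 that did not pass, 10 did under at least 1 alternative, and 0 calls reversed. The count of members passing in Hs606T was 0, not 1, with averaged probe sets, with the replicate block, with only the arrays compared, with the 1.5-fold minimum, and without any single array (0 to 0). For the difference between the siRNA responses it was 3 with median centring, 2 with the replicate block and 2 with the 1.5-fold minimum, and 2 to 4 without single arrays, against 5. Without both arrays that stood apart it was 1 in LM24175, against 0, and 3 between the vector arms of LM24175 and MDAMB231, against 1. Without single arrays it ran from 0 to 1 in MDAMB231, 0 to 1 for the difference between the construct responses, 1 to 2 between the vector arms and 3 to 4 in Hs343T. The cause of these changes was not tested.

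Replicate numbers showed no shared deviation within a line, where deviations of same-numbered arrays correlated at -0.05 to 0.011. This does not show that the samples were unpaired. With replicate number as a block, MDM2 in Hs606T kept 0.50 but not its call (adjusted p = 0.0964), and 68 genes passed there in all, against 143. Of all genes, 33 passed in MDAMB231, against 1 with the block, 0 with only the arrays compared, 59 without dim genes, 81 with trend and robust, 117 without both arrays that stood apart and 3 to 681 without single arrays. In LM24175 802 passed, against 432 with the block, 153 with only the arrays compared and 276 to 841 without single arrays. In Hs606T 65 passed with only the arrays compared, 364 without both arrays that stood apart and 46 to 101 without single arrays. For the difference between the construct responses 435 passed, against 148 with the block, 21 with only the arrays compared, 671 with trend and robust and 123 to 1411 without single arrays, and median centring gave 230 higher and 181 lower, against 197 and 238. Between the vector arms 2489 passed, against 1169 with only the arrays compared and 1430 to 2413 without single arrays. No detection calls were used, so dim probe sets, such as 4 of MDM2, have values of uncertain meaning.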
